A study of Mus musculus with 12 samples.

Results

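The adenosine genes of mouse heart muscle are described here in 3 groups of mice, as 10 genes chosen by symbol: the 4 receptors Adora1, Adora2a, Adora2b and Adora3, the enzymes Entpd1, Nt5e and Nt5c1a of the steps that lead to adenosine, Ada and Adk that remove it, and the transporter Slc29a1. All 10 were found among the 56647 gene rows that had a value in every library. The genes were chosen by their role, with earlier results of these data known.

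NECA-treated MI mice (n = 4) had myocardial infarction (MI) and were given NECA locally into the infarcted muscle. NECA, or 5′-(N-ethylcarboxamido)adenosine, is an analogue of adenosine that resists breakdown and activates its receptors. MI mice (n = 3) had the left coronary artery tied off, a procedure the labels state for these mice alone, and sham vehicle mice (n = 3) carried the labels of sham surgery and vehicle. All were wild type, and the labelled tissue was myocardium in every library. The sources used here do not give strain, sex, age, dose, time after ligation or the sampled region of the heart. For the MI mice no vehicle and no delivery is named, so NECA and its delivery cannot be told apart, nor can ligation and the absence of vehicle.

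Adenosine is released by stressed and oxygen-starved cells, or is made outside them. There Entpd1 (CD39) cleaves ATP and ADP to AMP, and Nt5e (CD73) turns AMP into adenosine. Adenosine acts on 4 G protein-coupled receptors: A1 and A3 couple to inhibitory G proteins and lower cyclic AMP, while A2a and A2b couple to stimulatory G proteins and raise it. In the heart, A1 on muscle and conduction cells slows the beat, and A2a on coronary vessels widens them. The signal ends when transporters such as Slc29a1 (ENT1) carry adenosine into cells, where Adk turns it into AMP and Ada into inosine.

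Counts are given per 1e+06 counts (M) of a library, as CPM. The 10 libraries of like depth, 1 per mouse, held 0.96 to 1.33 M counts, so that a count of 0 allowed up to 2.26 to 3.13 CPM in them, taken as 3 counts. MI mice 2 and 3 each had a further, deep library, called 1st in the titles, with 30.7 and 27.1 M counts and limits of 0.0976 and 0.111 CPM. Such limits, and the intervals of single libraries, cover counting error only. Cardiomyocyte markers summed to 48307 to 52907 CPM in NECA-treated MI mice, 37354 to 47731 CPM in MI mice and 47797 to 55747 CPM in sham vehicle mice. Sham vehicle mouse 3 stood apart: of the 4 atrial markers, Myl7, a myosin light chain of atria, had 785 CPM there and at most 0.888 CPM in any other library, and the 4 fat cell markers summed to 663 CPM there and to 0 to 241 CPM in the other mice. MI mouse 3 stood apart in fibroblast markers, which summed to 11180 CPM there, against 1223 to 4541 CPM in the other mice with MI. In tissue of mixed cells, fewer cells of a type and less RNA per cell cannot be told apart.

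None of the 6 adenosine genes that could be tested passed the test in any of the 3 comparisons. In MI against sham vehicle mice, Entpd1 had the largest positive difference of the tested genes and Adora1 the most negative. The largest differences in NECA-treated MI against MI mice were those of Nt5e and Entpd1, with opposite signs. Adk and Slc29a1 were the most abundant of the 10 in every group, with log2 fold changes between -0.08 and 0.06 in the 3 comparisons. Of the 10 genes, 6 had enough counts to be tested and 4 did not (Adora2b, Adora3, Nt5c1a and Ada).

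The test was edgeR's quasi-likelihood test over 9505 genes, two-sided, and a gene passed at a Benjamini-Hochberg adjusted p under 0.05. In MI against sham vehicle mice 0 of 6 tested adenosine genes passed, and 7 of all genes tested (0.0736%). At an unadjusted p under 0.05 were 2 of the 6, Entpd1 and Adora1, against 12% of all genes tested. For NECA-treated MI against MI mice 0 of 6 passed, as did 0 of all genes tested (0%), and 0 of 6 had an unadjusted p under 0.05, against 6.07% of all genes. In NECA-treated MI against sham vehicle mice 0 of 6 passed, and 1 of all genes tested (0.0105%), while Nt5e alone had an unadjusted p under 0.05, against 6.03% of all genes. DESeq2 and limma called 0 of the adenosine genes in each comparison as well. The median log2 fold change of the 6 genes was -0.0044 in MI against sham vehicle, 0.12 in NECA-treated MI against MI and 0.06 in NECA-treated MI against sham vehicle, where the medians over all genes tested were each -0.01. The comparisons share mice, so their results are given side by side and are not independent of each other.

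**Figure D1:**
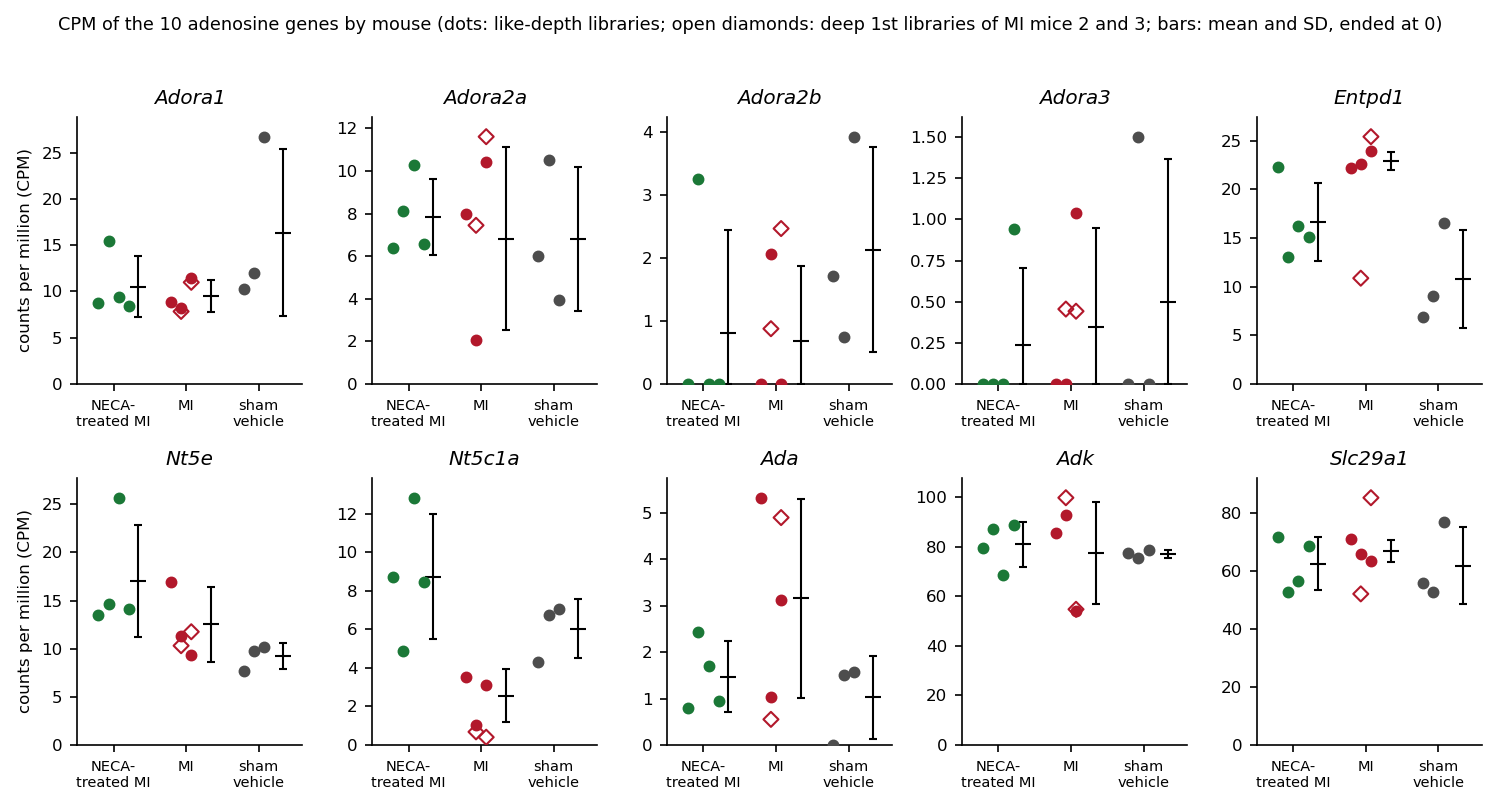
CPM of each adenosine gene (vertical axes, each with its own scale from 0) in NECA-treated MI, MI and sham vehicle mice. Dots are the libraries of like depth, open diamonds the deep libraries of MI mice 2 and 3, and bars the mean and SD of the dots. Sham vehicle mouse 3 lies above all other dots for Adora1 at 26.7 CPM, and all MI dots of Nt5c1a, up to 3.55 CPM, lie below all dots of the other groups.

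Adora1 encodes the A1 receptor. It had 8.75, 15.5, 9.41 and 8.48 CPM in NECA-treated MI mice 1 to 4, 8.88, 8.23 and 11.5 CPM in MI mice and 10.3, 12 and 26.7 CPM in sham vehicle mice. The groups overlapped in every comparison, and sham vehicle mouse 3 was the highest of all 10 mice. The log2 fold change of Adora1 was -0.84 ± 0.37 in MI against sham vehicle mice (SE; 95% interval -1.61 to -0.07; unadjusted p = 0.0332, edgeR adjusted p = 0.380), 0.17 ± 0.37 in NECA-treated MI against MI mice (adjusted p = 0.952) and -0.67 ± 0.33 in NECA-treated MI against sham vehicle mice (adjusted p = 0.828). Without sham vehicle mouse 3, the mouse with atrial markers, the log2 fold change was -0.41 in MI against sham vehicle and -0.23 in NECA-treated MI against sham vehicle. The part of atrial tissue in the value of that mouse was not tested. Adora1 overlaps Mybph on the opposite strand, which had 45 counts over the 12 libraries. The A1 receptor opens a potassium channel of atrial and nodal cells whose subunits are Kcnj3 and Kcnj5. Kcnj3 had 46.2 to 54.6 CPM in NECA-treated MI mice, 27.1 to 57.7 CPM in MI mice, and 71.2, 51.1 and 159 CPM in sham vehicle mice. Kcnj5, named after its values were seen, had 70.0 to 87.0 CPM in NECA-treated MI mice, 39.6 to 64.8 CPM in MI mice, and 59.2, 69.9 and 148 CPM in sham vehicle mice. For both subunits, as for Adora1, sham vehicle mouse 3 was the highest of the 10.

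Adora2a encodes the A2a receptor of coronary vessels and immune cells. It had 6.36, 8.13, 10.3 and 6.59 CPM in NECA-treated MI mice, 7.99, 2.06 and 10.4 CPM in MI mice and 6.0, 10.5 and 3.93 CPM in sham vehicle mice. The 3 groups overlapped, and the lowest value, of MI mouse 2, was 2 counts. The log2 fold changes had wide intervals: -0.11 in MI against sham vehicle (95% interval -1.22 to 1.01), 0.22 in NECA-treated MI against MI (-0.82 to 1.26) and 0.12 in NECA-treated MI against sham vehicle (-0.88 to 1.11). The deep library of MI mouse 2 held 229 counts of Adora2a, or 7.45 CPM, and that of MI mouse 3 held 315 counts, or 11.6 CPM. With the deep libraries added to the counts of those mice, the difference of NECA-treated MI against MI turned to -0.16, and that of MI against sham vehicle to 0.28. Endothelial markers, 6 of 6 tested, summed to 706 to 844 CPM in NECA-treated MI mice, 790 to 949 CPM in MI mice and 700 to 804 CPM in sham vehicle mice, and their part in the Adora2a values was not tested.

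Adora2b, a receptor of low affinity, and Adora3, known from mast cells, were at the limit of detection. Adora2b had 0, 4, 0 and 0 counts in NECA-treated MI mice, 0, 2 and 0 in MI mice and 2, 1 and 5 in sham vehicle mice. Counts were at 0 in 3 of 4 NECA-treated MI mice and 2 of 3 MI mice, and above 0 in all 3 sham vehicle mice, but each 0 allows up to 2.39 to 3.13 CPM, and the groups overlapped. Adora3 had 0, 0, 0 and 1 counts in NECA-treated MI mice, 0, 0 and 1 in MI mice and 0, 2 and 0 in sham vehicle mice. The deep libraries gave these rare receptors a level: Adora2b had 27 counts in MI mouse 2, or 0.878 CPM (95% Poisson interval 0.579 to 1.28), and 67 counts in MI mouse 3, or 2.47 CPM (1.91 to 3.14). Adora3 had 14 counts in MI mouse 2, or 0.455 CPM (0.249 to 0.764), and 12 counts in MI mouse 3, or 0.442 CPM (0.229 to 0.773). The intervals of the 2 mice overlapped for Adora3 and did not for Adora2b. These depths exist for MI mice alone, so no comparison between groups can be made at such levels. Adora3 overlaps Tmigd3 on the same strand, which had 2 counts over the 12 libraries. Mast cell markers, 6 genes of which 0 had enough counts to be tested, summed to 10.4 to 22.3 CPM in NECA-treated MI mice, 9.26 to 26.6 CPM in MI mice and 8.58 to 22 CPM in sham vehicle mice. Fcer1a was at 0 in all NECA-treated MI mice, but had at most 1 count in any library of like depth.

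Entpd1, which cleaves ATP and ADP to AMP on endothelium and immune cells, was higher in every MI mouse than in any sham vehicle mouse. It had 22.3, 13, 16.3 and 15.1 CPM in NECA-treated MI mice, 22.2, 22.6 and 24.0 CPM in MI mice and 6.86, 9.02 and 16.5 CPM in sham vehicle mice. MI mice did not overlap sham vehicle mice, which held for 7.72% of all genes tested in that direction, while NECA-treated MI mouse 1 lay within the MI range and the other 3 below it. The log2 fold change was 1.01 ± 0.31 in MI against sham vehicle mice (SE; 95% interval 0.36 to 1.66; unadjusted p = 0.00394), a 2.01-fold difference that did not pass (edgeR adjusted p = 0.247). It was -0.43 ± 0.28 in NECA-treated MI against MI mice (95% interval -1.01 to 0.14; adjusted p = 0.835) and 0.57 ± 0.30 in NECA-treated MI against sham vehicle mice (adjusted p = 0.837). Without sham vehicle mouse 3 the difference of MI against sham vehicle was 1.34 (adjusted p = 0.0836), the lowest adjusted p of the 6 tested genes under the alternatives tried. The deep library of MI mouse 2 held 334 counts of Entpd1, or 10.9 CPM (95% Poisson interval 9.73 to 12.1), which lies below the 22.6 CPM of its library of like depth (14.2 to 34.3). In MI mouse 3 the deep library gave 25.4 CPM and the other library 24.0 CPM. With the deep libraries in place of the others, the log2 fold change of Entpd1 was -0.11 in NECA-treated MI against MI and 0.69 in MI against sham vehicle, and MI mouse 2 then lay below sham vehicle mouse 3.

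Macrophages are a known source of Entpd1. Their 8 markers, all tested, summed to 440 to 733 CPM in NECA-treated MI mice, 314 to 1043 CPM in MI mice and 188 to 413 CPM in sham vehicle mice. All 8 had positive log2 fold changes in MI against sham vehicle (median 1.22) and in NECA-treated MI against sham vehicle (median 1.01), and 0 passed in either, with 7 and 5 at an unadjusted p under 0.05. The part of these cells in the Entpd1 values was not tested.

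**Figure D2:**
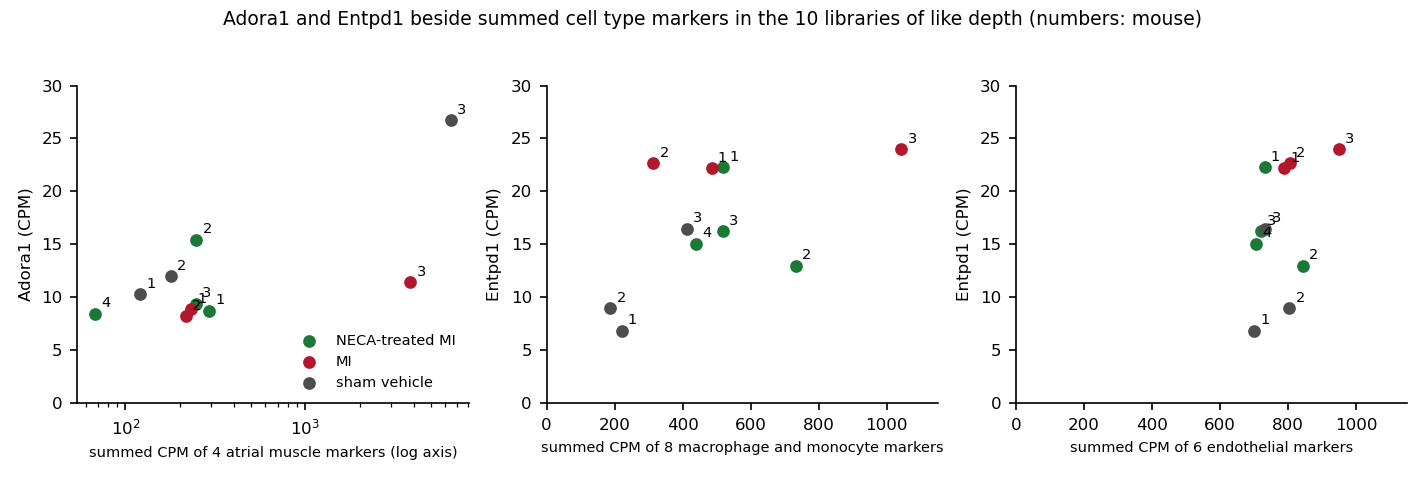
CPM of 1 adenosine gene (vertical axis) against the summed CPM of a marker list (horizontal axis, a log axis for atrial markers) in each mouse, with a color for each group. Sham vehicle mouse 3 has both the highest atrial sum, 6424 CPM, and the highest Adora1, 26.7 CPM. The sum of 3831 CPM in MI mouse 3 is Nppa alone, a peptide gene that strained ventricle also expresses, with Myl4, Myl7 and Sln at 0.

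Nt5e, the enzyme that turns AMP into adenosine outside cells, was higher in every NECA-treated MI mouse than in any sham vehicle mouse. It had 13.5, 14.6, 25.7 and 14.1 CPM in NECA-treated MI mice, 16.9, 11.3 and 9.38 CPM in MI mice and 7.72, 9.77 and 10.2 CPM in sham vehicle mice. NECA-treated MI mouse 3 was the highest of the 10, NECA-treated MI mice overlapped MI mice, and their separation from sham vehicle mice held for 5.12% of all genes tested in that direction and for 2.82% in the other. The log2 fold change was 0.81 ± 0.33 in NECA-treated MI against sham vehicle mice (SE; 95% interval 0.11 to 1.5; unadjusted p = 0.0236), which did not pass (edgeR adjusted p = 0.821). It was 0.43 ± 0.33 in NECA-treated MI against MI mice (95% interval -0.25 to 1.12; adjusted p = 0.853) and 0.37 ± 0.38 in MI against sham vehicle mice (adjusted p = 0.725). Without NECA-treated MI mouse 3 the difference was 0.54 in NECA-treated MI against sham vehicle and 0.16 in NECA-treated MI against MI, and without MI mouse 1 it was 0.08 in MI against sham vehicle. The deep libraries gave 10.3 CPM in MI mouse 2 and 11.8 CPM in MI mouse 3, within the Poisson intervals of their other libraries.

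Nt5c1a, a cytosolic nucleotidase of heart and skeletal muscle that makes adenosine from AMP inside the cell, did not have enough counts to be tested. It had 11, 6, 15 and 9 counts in NECA-treated MI mice, 4, 1 and 3 counts in MI mice and 5, 9 and 9 counts in sham vehicle mice. As CPM these were 4.88 to 12.8 in NECA-treated MI mice, 1.03 to 3.55 in MI mice and 4.29 to 7.07 in sham vehicle mice. MI mice thus lay below both other groups without overlap, where 4.13% of all genes tested were higher without overlap in NECA-treated MI against MI, and 5.75% were lower without overlap in MI against sham vehicle, shares that do not include genes with as few counts as Nt5c1a. The deep libraries held 21 counts in MI mouse 2, or 0.683 CPM (95% Poisson interval 0.423 to 1.04), and 11 counts in MI mouse 3, or 0.405 CPM (0.202 to 0.725). Both values lie below those of all NECA-treated MI and all sham vehicle mice, but they come from libraries of another depth and another set of filled rows, which hold MI mice only. They also lie below the 2nd libraries of the same mice, at 1.03 CPM in MI mouse 2 and 3.13 CPM in MI mouse 3. The Poisson intervals of the 2 libraries overlapped in each mouse, and the cause of the lower deep values was not tested. When the deep libraries were added to the counts of their mice, Nt5c1a entered the test, with a log2 fold change of 3.51 ± 0.65 in NECA-treated MI against MI (SE; edgeR adjusted p = 0.132) and -3.04 ± 0.71 in MI against sham vehicle (adjusted p = 0.0760). With the libraries of like depth Nt5c1a also passed the filter whenever 1 MI or 1 sham vehicle mouse was left out, with 1.42 to 2.06 in NECA-treated MI against MI (adjusted p 0.493 to 0.999) and -1.59 to -0.96 in MI against sham vehicle (adjusted p 0.355 to 0.769). In these settings, and with the deep libraries, it passed the filter only through NECA-treated MI mice, the group where its CPM were highest. Such results are therefore no support for a difference between groups. With no filter on low counts, the log2 fold changes were 1.74 ± 0.60 in NECA-treated MI against MI (adjusted p = 0.545) and -1.27 ± 0.65 in MI against sham vehicle (adjusted p = 0.559). The 5 skeletal muscle markers summed to 168 to 672 CPM in NECA-treated MI mice, 199 to 410 CPM in MI mice and 302 to 464 CPM in sham vehicle mice, most of it Acta1 in each mouse. The other markers stood out in NECA-treated MI mouse 4: Myh4 had 97.9 CPM, Myh1 91.3, Tnnt3 45.2 and Mylpf 38.6. In any other library each of them had at most 16.5 CPM, the value of Myh1 in MI mouse 2. The part of skeletal muscle in the Nt5c1a values was not tested.

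**Figure D3:**
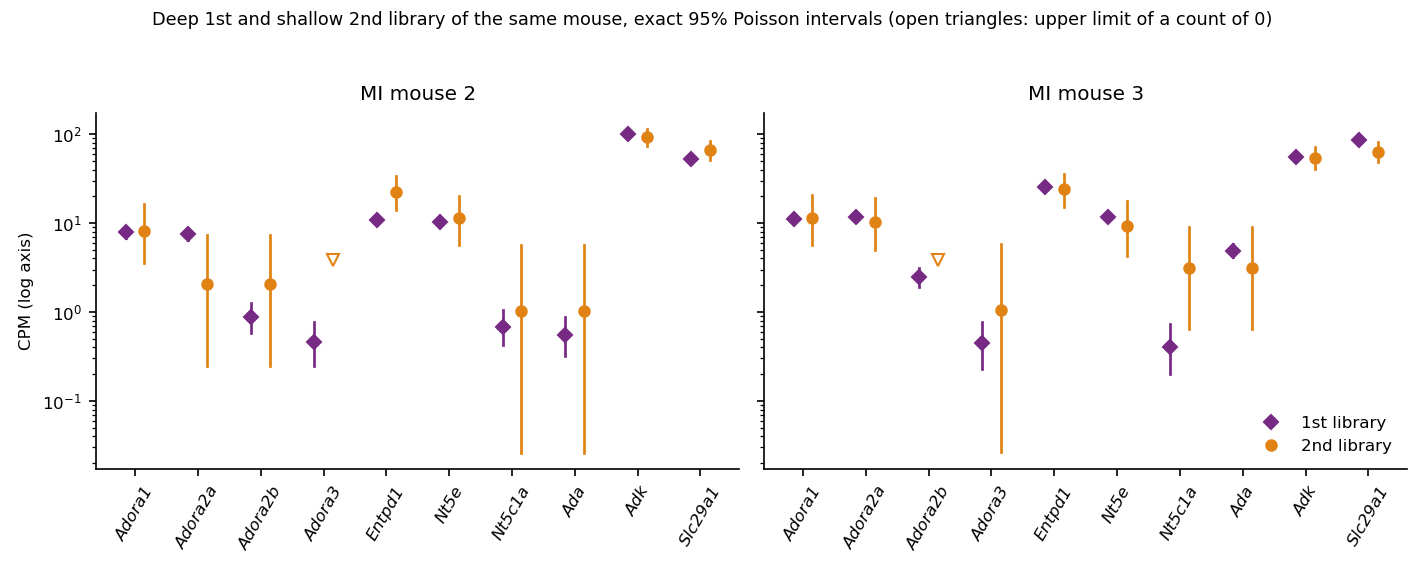
CPM of the 10 adenosine genes in the deep 1st libraries and the 2nd libraries of MI mice 2 and 3, with 95% Poisson intervals on a log axis. For 18 of the 20 pairs the intervals overlap. The exceptions are Entpd1 in MI mouse 2 and Slc29a1 in MI mouse 3. Open triangles mark the upper end of the two-sided Poisson interval of a count of 0, up to 3.84 CPM, which lies above the limit taken as 3 counts.

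Ada, adenosine deaminase, had 1, 3, 2 and 1 counts in NECA-treated MI mice, 6, 1 and 3 counts in MI mice and 0, 2 and 2 counts in sham vehicle mice. These values overlapped, and all but 1 were of at most 3 counts. The deep libraries separated MI mice from each other, with 133 counts or 4.90 CPM in MI mouse 3 (95% Poisson interval 4.10 to 5.81) and 17 counts or 0.553 CPM in MI mouse 2 (0.322 to 0.885). In the same deep libraries the macrophage markers summed to 1075 CPM in MI mouse 3 and 384 CPM in MI mouse 2. The fibroblast markers summed to 11694 CPM in MI mouse 3 and 1199 CPM in MI mouse 2, and endothelial and smooth muscle sums were also higher in MI mouse 3. The part of any cell type in the Ada values was not tested.

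Adk, adenosine kinase, which returns adenosine to AMP, had the highest mean CPM of the adenosine genes in each group, although Slc29a1 had more CPM in MI mouse 3. Adk had 79.5, 87.0, 68.5 and 88.5 CPM in NECA-treated MI mice, 85.3, 92.6 and 54.2 CPM in MI mice and 77.2, 75.2 and 78.6 CPM in sham vehicle mice. The 3 sham vehicle mice lay close together, within the range of both MI groups, and MI mouse 3 was the lowest of the 10. The log2 fold change was 0.06 ± 0.19 in NECA-treated MI against MI (SE; 95% interval -0.34 to 0.46), -0.06 ± 0.21 in MI against sham vehicle (-0.48 to 0.37) and 0.01 ± 0.19 in NECA-treated MI against sham vehicle (-0.39 to 0.40). As a ratio, the interval for NECA-treated MI against MI runs over 0.790 to 1.38. The deep libraries gave the same order of the MI mice, with 99.7 CPM in MI mouse 2 (95% Poisson interval 96.2 to 103) and 54.7 CPM in MI mouse 3 (52.0 to 57.6). MI mouse 3 also had the lowest sum of cardiomyocyte markers among the libraries of like depth, 37354 CPM, but the markers did not go alike. Myh6 (15503 CPM), Actc1 and Ryr2 were the lowest of these libraries there, and Myl2 (6924 CPM) the highest. Tnnt2 and Tnni3 lay within the range of the other mice. The part of these cells in its Adk value was not tested.

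Slc29a1, the equilibrative transporter that moves adenosine across the membrane of muscle and endothelial cells, had 71.6, 52.9, 56.5 and 68.7 CPM in NECA-treated MI mice, 71.1, 65.9 and 63.6 CPM in MI mice and 55.7, 52.6 and 77.0 CPM in sham vehicle mice. The MI values lay inside the ranges of both other groups. The log2 fold change was -0.08 ± 0.17 in NECA-treated MI against MI (SE; 95% interval -0.44 to 0.27), 0.05 ± 0.18 in MI against sham vehicle (-0.33 to 0.42) and -0.04 ± 0.17 in NECA-treated MI against sham vehicle (-0.39 to 0.31). In MI mouse 3 the deep library gave 85.3 CPM (95% Poisson interval 81.8 to 88.8), above the 63.6 CPM of its other library (48.6 to 81.6). An antisense gene, Gm17080, overlaps Slc29a1 and had 65 counts over the 12 libraries, and the sources used here do not say whether counting used strand.

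**Figure D4:**
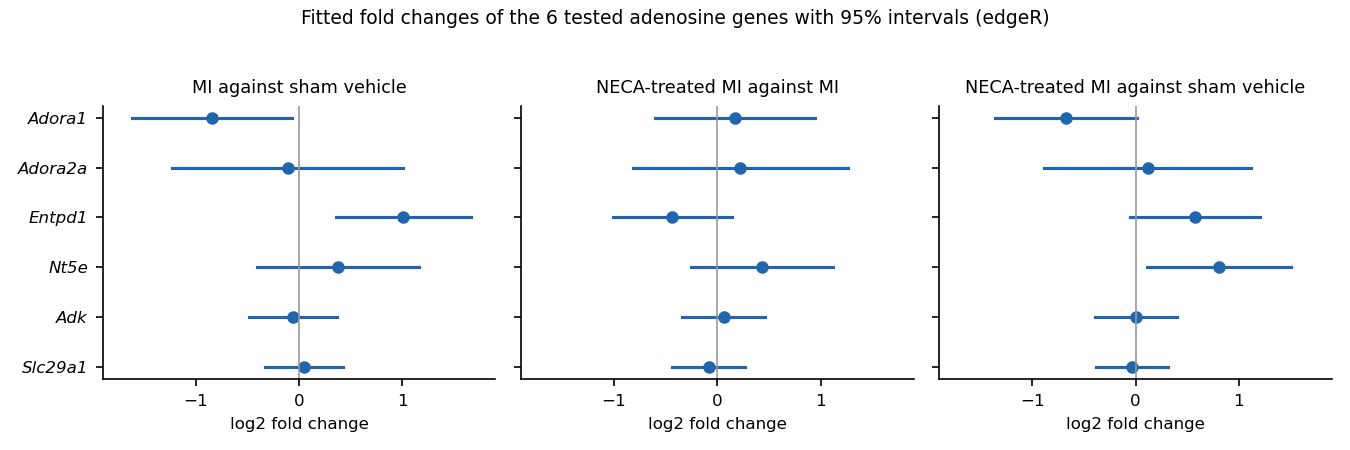
Log2 fold changes (horizontal axis) of the 6 tested adenosine genes with 95% intervals, in 1 panel for each of the 3 comparisons. Intervals that do not include 0 are those of Entpd1 and Adora1 in MI against sham vehicle and of Nt5e in NECA-treated MI against sham vehicle, and none of these passed after adjustment over all genes tested.

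Levels of different genes were compared on the authors' TPM, which divides by gene length although reads of transcript 3′ ends do not grow with length. On this scale Adk averaged 52.2 ± 12.4 TPM in NECA-treated MI mice (SD, n = 4), 59.7 ± 10.9 TPM in MI mice and 47.8 ± 8.20 TPM in sham vehicle mice (n = 3 each). Slc29a1 followed with 40.6 ± 10.5 TPM in NECA-treated MI mice, 45.9 ± 4.59 TPM in MI mice and 35.8 ± 9.10 TPM in sham vehicle mice. The ranges of Adk and Slc29a1 overlapped in each group, and every other adenosine gene lay below Slc29a1 without overlap, at a mean of at most 8.38 TPM. Next in the order were Entpd1 in NECA-treated MI and MI mice, with means of 8.38 and 6.75 TPM, and Nt5c1a in sham vehicle mice, with 5.28 TPM. By mean CPM, Nt5c1a (6.04 CPM) lay below Adora1, Entpd1, Nt5e and Adora2a in sham vehicle mice. Of the receptors, Adora2a averaged 4.02 TPM and Adora1 2.46 TPM in NECA-treated MI mice, Adora2a 2.57 TPM and Adora1 2.34 TPM in MI mice, and Adora2a 3.06 TPM and Adora1 4.75 TPM in sham vehicle mice, with overlapping ranges in each group. By mean CPM Adora1 lay above Adora2a in each group, so their order depends on the scale. The means of Adora1 and Adora2a were 10.5 and 7.84 CPM in NECA-treated MI mice and 9.53 and 6.82 CPM in MI mice. In sham vehicle mice they were 16.3 and 6.82 CPM. Among lower genes the TPM ranges of neighbours overlapped, except those of Entpd1 and Nt5e in MI mice and Adora1 and Ada in NECA-treated MI mice. The TPM of Entpd1 in a library was 0.214 to 0.775 times its CPM, a 3.62-fold range, against a 1.16-fold range for Nt5e, so the 2 scales do not order the mice alike for Entpd1. With limma on log2(TPM + 1), Entpd1 in NECA-treated MI against MI was 0.18, where the counts gave -0.43.

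For the 5 adenosine genes with a mean of at least 10 CPM, the genes of most similar pattern were taken over the 10 libraries of like depth, among 9183 genes, as a description. These points share groups and depth. The genes were picked for the highest r among so many, over only 10 libraries. Whether such r exceed those that unrelated genes would reach was not tested. Adora1 was most like Slc38a1 (Pearson r = 0.913), Slc25a10 (0.881) and Ggcx (0.880). Entpd1 was most like Dusp11 (r = 0.964), Mta3 (0.931) and Ddr2 (0.918). Nt5e was most like Sptbn1 (r = 0.917), Itpkb (0.890) and Eif3c (0.876). Adk was most like Mcur1 (r = 0.971), Ubr2 (0.963) and Klhl21 (0.955), and Slc29a1 was most like Mogs (0.892), Plpp6 (0.849) and Mfsd8 (0.840).

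Of 87 further genes in 5 lists around the same pathway, 60 were tested, and 0 rose and 0 fell in any of the 3 comparisons. Among 17 other ectonucleotidases, nucleotidases and phosphatases, 10 were tested, and 8 of the 10 were positive in MI against sham vehicle, where the median was 0.09 and that of all genes -0.01. In NECA-treated MI against MI 2 of the 10 were positive (median -0.17). Entpd2, which cleaves ATP outside cells, had 20.3 ± 6.69 CPM in NECA-treated MI mice, 23.9 ± 11.8 CPM in MI mice and 10.5 ± 3.92 CPM in sham vehicle mice (SD), and log2 fold changes of 1.07 ± 0.36 in MI against sham vehicle (SE, edgeR adjusted p = 0.248) and 0.89 ± 0.34 in NECA-treated MI against sham vehicle (adjusted p = 0.805). Entpd5, a nucleotidase of the endoplasmic reticulum, had 157 ± 13.3 CPM in NECA-treated MI mice against 114 ± 32.1 CPM in MI mice, a log2 difference of 0.45 ± 0.20 (adjusted p = 0.793).

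Of 22 other purine enzymes, 20 were tested, with 15 positive in NECA-treated MI against MI (median 0.09) and 9 in MI against sham vehicle (median -0.05). Ak1, an adenylate kinase of muscle that forms AMP from ADP, had 444 ± 13.1 CPM in NECA-treated MI mice, 381 ± 12.6 CPM in MI mice and 527 ± 61.0 CPM in sham vehicle mice, with a log2 fold change of -0.56 ± 0.18 in MI against sham vehicle (adjusted p = 0.247). Ak4, its mitochondrial relative, had 37.4 ± 3.35 CPM in NECA-treated MI mice against 19.6 ± 8.72 CPM in MI mice, and the groups did not overlap, as for 4.13% of all genes tested in that direction (log2 difference 0.93 ± 0.28, unadjusted p = 0.00276, adjusted p = 0.793). Xdh, which degrades purines to uric acid, had 126 ± 17.3 CPM in NECA-treated MI mice and 92.6 ± 12 CPM in sham vehicle mice (0.38 ± 0.18, adjusted p = 0.821).

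Among 6 other nucleoside transporters, 3 were tested, with medians of -0.41 in NECA-treated MI against MI and 0.67 in MI against sham vehicle. Slc28a2, a sodium-coupled transporter of purine nucleosides, had 40.2 ± 4.06 CPM in NECA-treated MI mice, 54.1 ± 5.04 CPM in MI mice and 32.2 ± 6.87 CPM in sham vehicle mice. In CPM of the libraries of like depth, MI mice lay above both other groups without overlap. The deep library of MI mouse 2 gave 44.4 CPM, below the 44.5 CPM of NECA-treated MI mouse 1. By TPM, MI mice (13.8 to 21.7) overlapped NECA-treated MI mice (11.1 to 16.3). Of all genes tested, 3.23% were lower without overlap in NECA-treated MI against MI and 7.72% higher in MI against sham vehicle. Slc28a2 had a log2 fold change of -0.41 ± 0.18 in NECA-treated MI against MI (adjusted p = 0.793) and 0.67 ± 0.19 in MI against sham vehicle (adjusted p = 0.234). Of 18 P2 receptors and nucleotide release channels, 5 were tested, with 1 positive in NECA-treated MI against MI (median -0.18) and 4 in MI against sham vehicle (median 0.07). P2ry2, a receptor for ATP and UTP, had 27.8, 28.5, 36.8 and 24.5 CPM in NECA-treated MI mice, 15.1, 16.5 and 13.5 CPM in MI mice and 21.4, 15.8 and 19.6 CPM in sham vehicle mice. By CPM all NECA-treated MI mice lay above all mice of both other groups. For each comparison alone, this held for 4.13% of all genes tested against MI and 5.12% against sham vehicle. By TPM, NECA-treated MI mice (7.81 to 13.5) overlapped MI mice (4.91 to 8.71) and sham vehicle mice (4.83 to 8.68). P2ry2 had log2 fold changes of 0.98 ± 0.25 against MI (unadjusted p = 0.000842, edgeR adjusted p = 0.793) and 0.57 ± 0.24 against sham vehicle (adjusted p = 0.821), neither of which passed.

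Of 24 G proteins and effectors of the adenosine receptors, 22 were tested, with 13 positive in NECA-treated MI against MI (median 0.08) and 11 in MI against sham vehicle (median -0.11). Adcy5, an adenylyl cyclase of heart muscle that A1 inhibits and that makes cyclic AMP, had 94.6, 87.8, 73.6 and 59.3 CPM in NECA-treated MI mice, 45.3, 64.8 and 47.9 CPM in MI mice and 84.9, 81.2 and 84.9 CPM in sham vehicle mice. The MI mice lay below all sham vehicle mice, as for 5.75% of all genes tested, while MI mouse 2 lay above NECA-treated MI mouse 4. The log2 fold change of Adcy5 was 0.60 ± 0.19 in NECA-treated MI against MI (SE, unadjusted p = 0.00512, edgeR adjusted p = 0.793) and -0.74 ± 0.20 in MI against sham vehicle (adjusted p = 0.229). Kcnj3, the channel subunit given above, had a log2 fold change of -0.91 ± 0.35 in NECA-treated MI against sham vehicle (adjusted p = 0.821), with sham vehicle mouse 3 at 159 CPM.

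**Figure D5:**
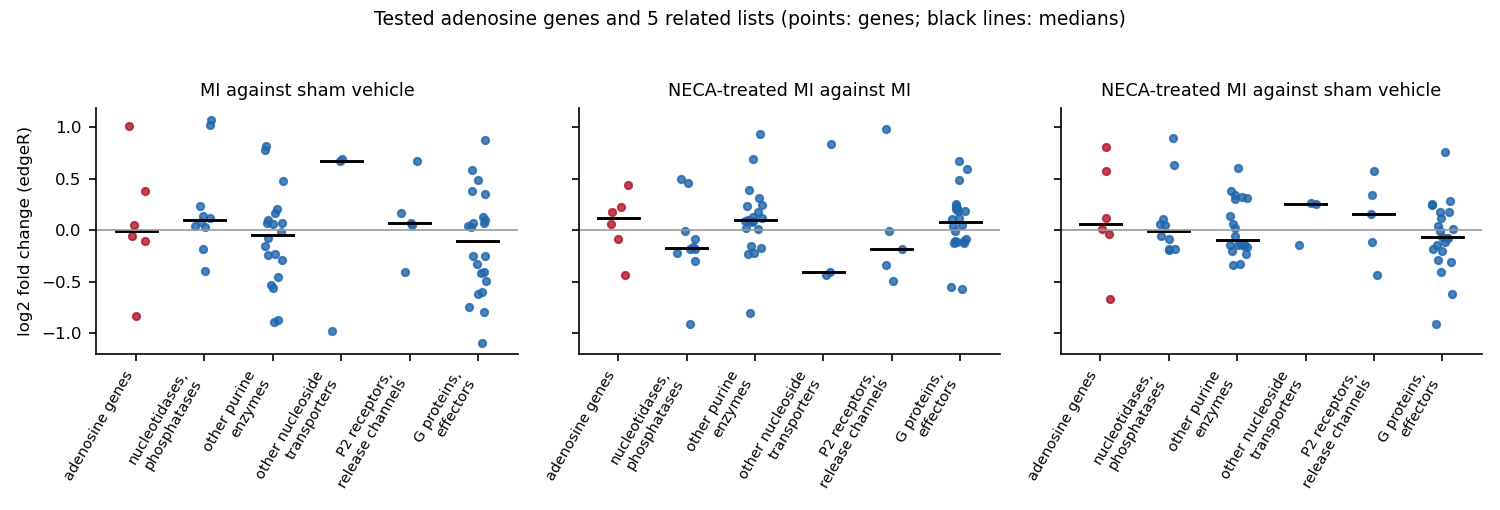
Log2 fold changes (vertical axis) of the tested adenosine genes and of the tested genes of 5 related lists, in 1 panel for each comparison, with a point per gene and a black line at each median. The medians lie near 0 in most lists, and 0 of the 60 related genes passed the test.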

How the data were processed

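The authors deposited expected counts per gene from RSEM, as whole numbers, and log2(TPM + 1) values, with 1 column per library. Per the submitters' processing notes, FastQC 0.11.9, STAR and RSEM were used with the mouse build GRCm39. Per the labels' protocols, libraries followed a modified CEL-Seq2 protocol, which reads transcript 3′ ends. No source used here names the annotation release or says how molecular identifiers and strand were treated. RSEM divides reads among near-identical or overlapping genes, so such values are uncertain.

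Of 57054 gene rows, 306 were filled only in the 2 deep libraries and 101 were empty only there, so those columns list different genes. The analysis kept the 56647 rows filled in all libraries. GENCODE M21, of an earlier build, gave symbols by Ensembl identifier for 52029 of them and no coordinates. Some count columns spell MI with a digit in place of the letter and were matched to the sample titles.

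The mouse was the replicate. Nothing in the labels says more about how the mice were kept or sampled. Because the deep libraries form a batch of MI mice only, the 10 libraries of like depth were tested, with the 2nd library for MI mice 2 and 3, and the sum of both libraries was an alternative. After filterByExpr and TMM scaling (factors 0.885 to 1.13), edgeR 4.0.16 (R 4.3.3) fitted the 3 groups together by quasi-likelihood, with robust estimation, two-sided tests and Benjamini-Hochberg adjustment. Standard errors are the fold change divided by the root of the F statistic. CPM are counts per 1e+06 counts of a library. Exact Poisson intervals are at 95%. The scripts were tested on simulated data.

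Alternatives were RLE scaling, no scaling, no filter, DESeq2 1.42.0, limma 3.58.1 on log2(TPM + 1), the deep libraries summed or alone, 2 groups only, a replicate block and leaving out each mouse. The genes and lists were chosen with earlier results of these data known. From each related list the text names the gene of smallest p in each comparison, since 0 passed, and for members with a mean of at least 10 CPM the 3 most similar genes. Genes named otherwise, among them the markers, were chosen after their values were seen. None of the 13 marker lists had a gene past the threshold in edgeR.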

Additional observations from a re-analysis of the deposited data

Results flagged for a closer look

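Adora1 and Nt5e each had 1 NECA-treated MI mouse far from the other 3 by Dixon's criterion for 4 mice, which chance meets in about 5% of groups. The criterion was applied to the NECA-treated MI mice for each of the 10 adenosine genes. NECA-treated MI mouse 2 was apart for Adora1 at 15.5 CPM, where the others had 8.48 to 9.41 CPM. NECA-treated MI mouse 3 was apart for Nt5e at 25.7 CPM, where the others had 13.5 to 14.6 CPM. For both genes the 95% Poisson interval of the mouse apart overlapped those of the other 3. For Adora2b and Adora3 the criterion is met by any count above 0, because the other 3 mice are tied at 0, so the 5% does not apply. These were NECA-treated MI mouse 2 for Adora2b at 3.25 CPM, which was 4 counts, and NECA-treated MI mouse 4 for Adora3 at 0.942 CPM, which was 1 count.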

How the results depend on the processing

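None of the 355 values of the 6 tested adenosine genes under 20 alternative settings passed the threshold, and the smallest adjusted p was 0.0836 (Entpd1 in MI against sham vehicle without sham vehicle mouse 3). Nt5c1a, which was not among the 6, entered the test under some alternatives and did not pass, with adjusted p of 0.0760 with summed libraries and 0.0806 with the 1st library in MI against sham vehicle. Where the filter was used, Nt5c1a entered only through NECA-treated MI mice, the group where it was highest. The direction turned in 35 of the 355. Between NECA-treated MI and MI, Adora2a turned to -0.16 with summed libraries and -0.18 with the 1st library, Entpd1 to 0.18 and Adk to -0.20 with limma, and Adk to -0.19 without sham vehicle mouse 3 and MI mouse 3, a setting added after seeing the data. Between MI and sham vehicle, Adora2a turned to 0.28 with summed libraries, 0.29 with the 1st library and 0.00027 with no scaling, and Adk to 0.0104 with no scaling, 0.31 with limma and 0.12 without both of those mice. Between NECA-treated MI and sham vehicle, Adora2a turned to -0.24 and Adk to -0.0705 without both mice, Adk to -0.0679 with the replicate block, and Slc29a1 to 0.0111 with no scaling, 0.17 with limma and 0.0491 without both mice. The cause was not tested. Leaving out 1 mouse each gave, in MI against sham vehicle, -0.46 to 0.39 for Adora2a, -0.26 to 0.20 for Adk and -0.0225 to 0.15 for Slc29a1. Between NECA-treated MI and MI it gave -0.0537 to 0.25 for Adora1, -0.14 to 0.54 for Adora2a, -0.19 to 0.27 for Adk and -0.18 to 0.0071 for Slc29a1. Between NECA-treated MI and sham vehicle it gave -0.24 to 0.62 for Adora2a, -0.0647 to 0.0786 for Adk and -0.11 to 0.0571 for Slc29a1.

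The count of all genes past the threshold in MI against sham vehicle was 7, and became 15 with summed libraries, 12 with the 1st library, 191 with no filter, 17 with DESeq2, 0 with limma, 0 with the 2 groups alone, 69 without both mice and 0 to 50 when 1 mouse was left out (50 without sham vehicle mouse 3, 0 without sham vehicle mouse 2). Between NECA-treated MI and MI it was 0, and became 1 with summed libraries, 1 with the 1st library, 8 with no filter and 0 to 2 when 1 mouse was left out. For NECA-treated MI against sham vehicle it was 1, and became 0 with summed libraries, 0 with the 1st library, 4 with no scaling, 43 with no filter, 6 with DESeq2, 0 with limma, 7 with the 2 groups alone, 242 without both mice and 0 to 7 when 1 mouse was left out. With the replicate block it was 4, and 0 adenosine genes passed under the block. No sign of pairing by mouse number was seen: of 9 same-numbered pairs, with r of -0.23 to 0.19, 2 were over 0.1, and 1 of 10 mice correlated best with its own number. With so few mice in a group, this check cannot exclude a pairing.

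Libraries of 0.96 to 1.33 M counts (M for 1e+06) limit the rare genes: Adora2b, Adora3, Nt5c1a and Ada had too few counts for the filter, and Adora2b, Adora3 and Ada lay near the limit that a count of 0 allows.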
